A study of Mus musculus with 8 samples.

Results

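The 4 libraries from injured kidneys without 5AZA were set against both sham libraries, 6 of the 8 libraries in the series. The DNA was extracted from kidney tissue (cortex plus outer medulla) of wild type male mice of the strain C57BL/6J. The injured libraries were 2 from unilateral ureter obstruction (UUO) of 7 days, in which the left ureter was tied and cut, and 1 each from bilateral kidney ischemia of 25 minutes followed by 1 week or by 1 month of reperfusion. Each model had 1 sham library, from mice operated on without the ligation or the clamping. The title of the ischemia sham gives no time after surgery, and both reperfusion times were read against it. The other 2 libraries, from obstructed mice given 5AZA, an inhibitor of DNA methylation, stayed outside the comparison. Whether obstructed mice without 5AZA received an injection of the saline vehicle is not stated in the labels, so UUO minus sham could include one. The 3 libraries of a model (obstruction series or ischemia series) were treated as a block, so that every injured library was read against its own sham. Whether each library is a separate animal is not stated in the labels, and 4 of the 5 groups hold 1 library. SDs and p-values therefore describe only these libraries, and none includes a spread between shams of 1 model. The question is whether obstruction and ischemia, which both lead to fibrosis, share changes in DNA methylation.

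In mammals, DNA methylation is laid down mainly on the cytosine of CpG dinucleotides by the enzymes Dnmt3a and Dnmt3b, copied at cell division by Dnmt1 with Uhrf1, and removed through oxidation by the Tet enzymes. Most CpG sites of a somatic tissue are methylated, while CpG-rich promoters (CpG islands) are mostly free of it. Exceptions are promoters of germ-line genes, which are kept silent by methylation in somatic cells, and imprinted control regions, where the copy from 1 parent carries the mark. Injured kidneys lose tubular cells and gain fibroblasts and leukocytes, and in DNA from whole tissue a different mix of cells and a different level within each cell cannot be told apart.

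Reduced representation bisulfite sequencing (RRBS) reads short fragments cut by the enzyme MspI at CCGG, after bisulfite has turned unmethylated cytosines into thymines. The methylation level of a CpG is the percentage of its reads that kept the cytosine. A total of 970889 autosomal CpG positions had at least 10 reads in all 6 libraries, and they filled 93321 windows of 1000 bp with at least 3 positions each. The libraries held 59202787 to 86411736 reads over CpG positions, and a window held a median of 274 reads per library. Levels of the windows were alike in any 2 libraries, with a Pearson r over windows of 0.985 to 0.993, a description over features that share the same DNA fragments. The UUO pair differed by 2.91 percentage points per window on average, the ischemia pair by 2.67 points and the shams by 3.15 points.

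Injured kidneys lay on both sides of the shams in mean methylation level. Over all positions it was 46.35% and 46.40% in the UUO libraries against 45.52% in their sham, and 44.04% at 1 week and 44.59% at 1 month of reperfusion against 44.57% in the ischemia sham. UUO libraries were thus above their sham by 0.83 and 0.88 points, the 1-week library was 0.53 points below its sham, and the 1-month library was level with it (0.015 points). The mean of both within-series differences was 0.299 points (two-sided exact permutation test moving the sham label within each series, p = 0.6667, where the 9 arrangements allow no p below 0.1111). The shams themselves differed by 0.949 points and the mean of the UUO pair lay 2.061 points above that of the ischemia pair, both more than the average effect of injury. The UUO mean was 46.38% ± 0.03 (SD, n = 2) and the ischemia mean 44.31% ± 0.38 (SD, n = 2, 1 library per time). Without the UUO sham only the ischemia difference was left, -0.257 points, the opposite sign.

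The direction of the mean level also depended on how positions were weighted. When reads were pooled, so that deep positions count more, the levels were 39.83% and 41.32% in UUO against 42.42% in their sham, and 41.14% and 38.96% in ischemia against 41.11%, a mean difference of -1.456 points (exact permutation p = 0.3333). The level also depended on whether positions at fragment edges were kept. In the study's protocol the cut ends were filled with methylated dCTP. By the rule used here, 58.06% of the kept positions lay at a fragment edge. The rule marks a change in read depth between neighbouring CpG sites or the lack of a close neighbour. With these positions left out, 407151 positions had mean levels of 22.91% and 22.95% in UUO, 22.16% in the UUO sham, 21.17% and 21.56% in ischemia and 21.25% in the ischemia sham, and the mean difference was 0.439 points (exact permutation p = 0.2222). The shift between the sets of positions was far larger than any difference between libraries within a set. The 2 sets also hold different DNA. Windows with 3 to 5 positions went from 54840 to 16043 and those with 20 or more from 11340 to 5162. How much of the shift comes from filled ends was not tested.

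**Figure D1:**
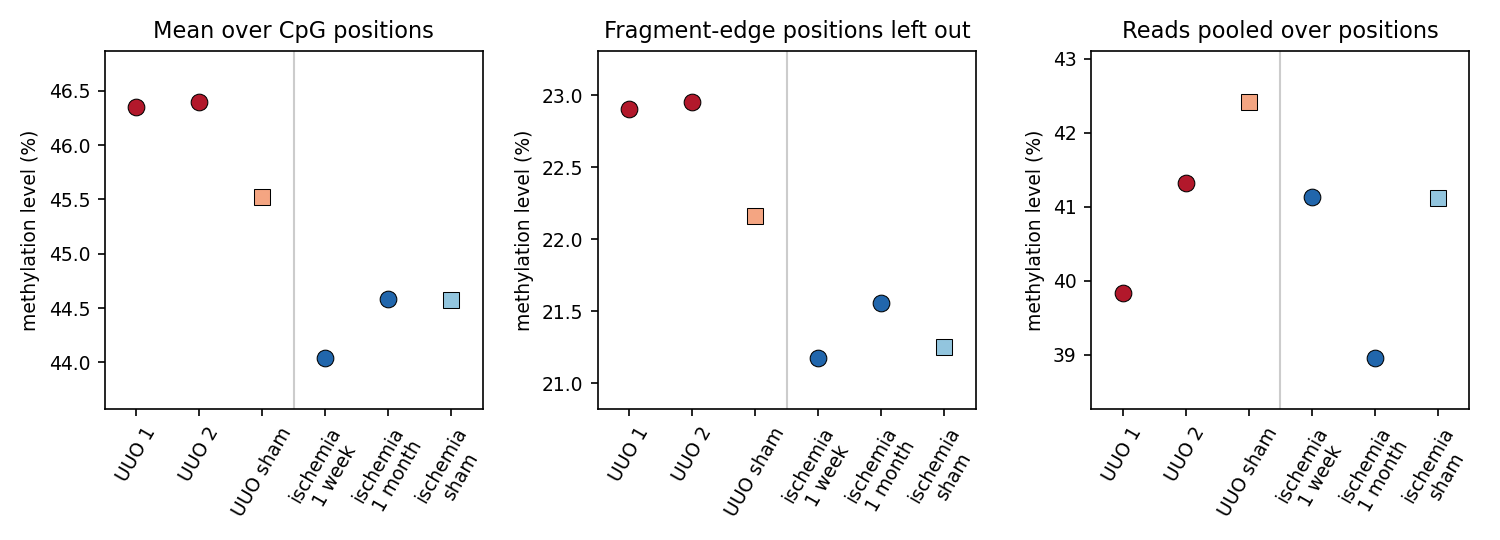
Mean methylation level (%) of each library, with circles for injured and squares for sham libraries, red for the obstruction and blue for the ischemia series, and a separate vertical range in each panel that does not start at 0. UUO libraries lie above their sham in the left and middle panels and below it in the right one, where reads are pooled, while the ischemia libraries lie on both sides of their sham in all 3 panels.

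Window by window, the libraries differed from their shams in unequal number. At least 10 points above the own sham were 4337 windows in the first UUO library, 3392 in the second, 1016 at 1 week and 1890 at 1 month of reperfusion. At least 10 points below it were 1935, 1148, 1704 and 1344 windows in the same order. In either direction, that was 6.72%, 4.86%, 2.91% and 3.47% of all windows. The UUO pair lay 10 points or more apart in 3.45% of windows, the ischemia pair in 2.69% and the 2 shams in 4.17%. Both ischemia libraries thus differed from their sham in fewer windows than the shams did from each other. Higher windows outnumbered lower ones in both UUO libraries and at 1 month, and lower ones were more numerous at 1 week. In 12162 windows (13.0%) all 4 injured libraries lay above their own sham, and in 11060 (11.9%) all 4 lay below it. The injured libraries of a series share 1 sham, so these 4 comparisons are not independent.

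Only 3 windows of the 93321 passed the test for a change with injury shared by both models, which is 0.00321% of those tested. The test was a quasi-binomial logistic model of methylated and total reads with series and injury as terms, its dispersion moderated over windows with limma's squeezeVar, and a window was called at a Benjamini-Hochberg adjusted p below 0.05 and a mean within-series difference of 10 points or more. Of these, 2 were higher (0.00214%) and 1 was lower (0.00107%) in injured kidneys. The higher windows were the promoter window of 4933428G20Rik on chromosome 11 and a window downstream of the start of Runx1 on chromosome 16, and the lower one lay upstream of Syngr1 on chromosome 15. An unadjusted p below 0.05 was reached by 6397 windows (6.85%). The count hung on single libraries. A series left without its sham drops out of the injury difference, so a run without a sham covers the other series alone. It was 0 without either UUO library, without the 1-month library or without the UUO sham, but 65 without the 1-week library, 55 of them higher, and these included the 3. Without the ischemia sham it was 11, and 2 of the 3 were among them. Other models called 2 windows (limma on log2 ratios), 1 of them among the 3, 0 (limma on levels) and 1 (edgeR), which was among the 3. The window upstream of Syngr1 kept its call with limma on log2 ratios (adjusted p = 0.0392) and edgeR (adjusted p = 0.0213). Both higher windows lost theirs, with an adjusted p of 0.5 and 0.0571.

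4933428G20Rik, a gene known by its RIKEN clone name, held the promoter in the called window with the most CpG sites. The window chr11:97361001-97362000 (mm9) had 48 measured CpG sites with 2203 to 4196 reads per library. Its level was 55.78% and 54.91% in the UUO libraries, 42.63% at 1 week, 44.71% at 1 month, 36.21% in the UUO sham and 34.04% in the ischemia sham. All 4 injured libraries were above both shams, and UUO was above ischemia. The rise was 19.13 points with obstruction and 9.63 points with ischemia, 14.38 points on average (SE 1.55, quasi-binomial model with limma's squeezeVar, adjusted p = 0.0322). The promoter sequence that was located there is shown because it is the only promoter window called, with 38 CpG sites in 250 bases, a number that 1.88% of mouse promoters reach. It is the 250 bases before the annotated start from RefSeq (GRCm38.p6, minus strand), 5′ to 3′, with every CpG in capitals, and its CpG spacing matched the measured positions at chr11:97361655-97361904 of mm9.
4933428G20Rik: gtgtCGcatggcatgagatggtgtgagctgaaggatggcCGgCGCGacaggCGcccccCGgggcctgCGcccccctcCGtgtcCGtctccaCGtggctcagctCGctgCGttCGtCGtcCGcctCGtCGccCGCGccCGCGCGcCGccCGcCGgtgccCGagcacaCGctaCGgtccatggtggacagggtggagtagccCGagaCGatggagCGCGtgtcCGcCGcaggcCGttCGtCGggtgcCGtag
The MspI site CCGG, read the same on both strands, occurred 3 times in it, while 47.05% of all promoters of that length hold it at least 1 time. Across the 26 measured sites of this stretch the mean level was 51.88% and 51.14% in UUO, 40.27% and 41.88% in ischemia and 24.39% and 29.45% in the shams.

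Most single CpG sites had higher levels in injured kidneys. Of the 48 sites in the window, 46 had a mean difference above 0, and at 30 of them all 4 injured libraries exceeded their own sham. The median difference was 17.18 points and the range -0.66 to 28.55 points. The site at chr11 position 97361784 read 66.04% and 62.75% in UUO, 47.92% and 48.78% in ischemia, and 24.39% and 31.25% in the shams, on 32 to 82 reads. At position 97361642, closer to the start, the 1-week library was at 30.77% and its sham at 34.09%, while the 1-month library was at 42.86%. A few sites were high in all 6 libraries, such as position 97361864 at 80.58% to 92.19%. That position lies in a CCGG of the printed sequence, where MspI cuts. How much of its level comes from filled ends was not tested. With the 18 edge positions of the window left out, its levels were 51.91% and 50.89% in UUO, 38.52% and 40.08% in ischemia, and 30.09% and 27.07% in the shams, a rise of 16.77 points (adjusted p = 0.0047). With all positions, the call was lost at 20 reads per position (adjusted p = 0.0911), with 5 positions per window (adjusted p = 0.181) and with limma on levels (adjusted p = 0.48).

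Upstream of this window the ischemia libraries lay below their sham. The next window, chr11:97362001-97363000, begins 0.3 kb upstream of the located start of 4933428G20Rik. It had levels of 47.53% and 49.11% in UUO against 27.39% in their sham, and 30.68% and 27.21% in ischemia against 33.65%. The difference was 20.93 points with obstruction and -4.71 points with ischemia. The contrast between the models was 25.64 points (SE 3.20), and the interaction of series and injury did not pass the test there (adjusted p = 0.421); without the 1-week library it did (27.38 points, adjusted p = 0.0281).

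**Figure D2:**
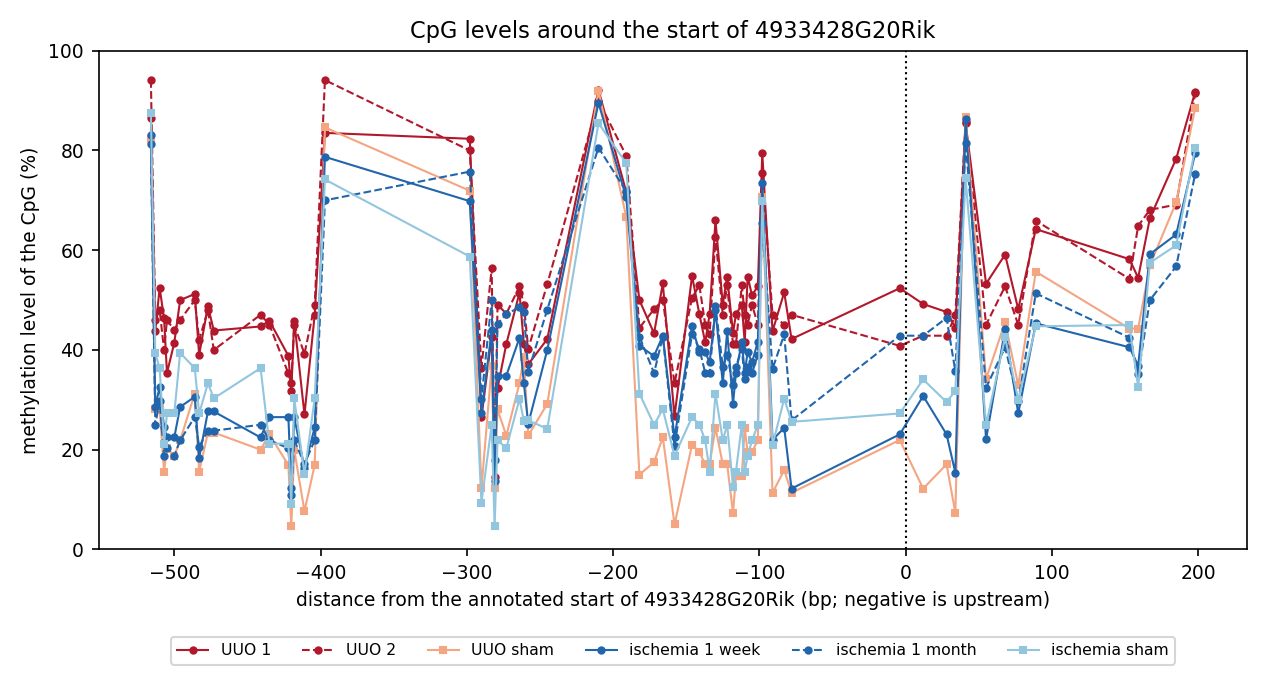
Methylation level (%) of each measured CpG against its distance in bp from the annotated start of 4933428G20Rik, with a line per library and the start at the dotted line. The UUO lines are highest at most sites, the ischemia lines lie between them and the shams over most of the promoter except near the start, where the 1-week line dips to the shams, and at the far left the ischemia lines run among the shams.

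The window downstream of Runx1, a transcription factor of blood cell development, was lower in level than that of 4933428G20Rik. It spans chr16:92606001-92607000, with 23 CpG sites and 1145 to 2181 reads per library, 90.6 kb downstream of the start of the nearest promoter that could be located, that of Runx1. Nearer starts may exist, and whether the window is exonic or intronic was not analysed here. The level was 34.34% and 36.94% in UUO, 25.21% and 26.36% in ischemia, 22.65% in the UUO sham and 18.43% in the ischemia sham. Again every injured library was above both shams. The rise was 12.99 points with obstruction and 7.36 points with ischemia, 10.17 points on average (SE 1.15, quasi-binomial model with limma's squeezeVar, adjusted p = 0.0322). All 4 libraries exceeded their sham at 17 of the 23 sites. With edge positions left out, the shams were at 7.79% and 5.07%, the UUO libraries at 23.08% and 25.02% and the ischemia libraries at 13.46% and 14.54% (mean rise 12.60 points, adjusted p = 0.00263). The call with all positions was lost at 20 reads per position (adjusted p = 0.0911), with 5 positions per window (adjusted p = 0.181) and with limma on levels (adjusted p = 0.463).

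The single lower window lay 29.8 kb upstream of the located start of Syngr1, which encodes a membrane protein of synaptic vesicles. It spans chr15:79891001-79892000 and held 4 CpG sites with 102 to 412 reads per library. The level was 64.16% and 63.75% in UUO, 59.95% at 1 week and 65.87% at 1 month, against 91.18% and 91.54% in the shams. The fall was -27.22 points with obstruction and -28.63 points with ischemia, -27.93 on average (SE 2.34, same model, adjusted p = 0.0177), and the injured and sham values do not overlap. It came from the 2 middle sites, 2 bp apart. Position 79891846 read 50.54%, 51.25%, 47.10% and 49.49% in the injured libraries and 88.24% and 91.07% in the shams. Position 79891848 read 54.84%, 55.00%, 48.91% and 59.79%, against 94.12% and 89.29%. The outer sites differed by -6.56 and -5.92 points. All 4 sites counted as fragment edges, so the window has no value without them. The next window, chr15:79892001-79893000, stood at 87.72% to 93.15% in all 6 libraries.

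**Figure D3:**
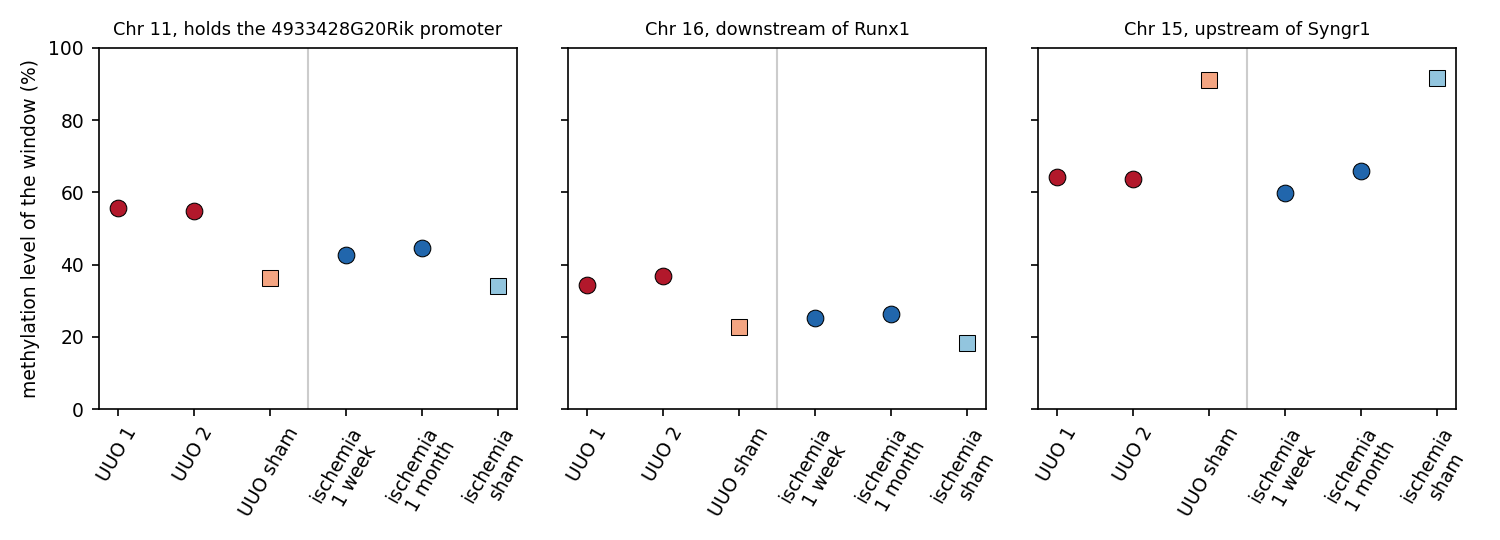
Methylation level (%) of the 3 called windows in each library, with circles for injured and squares for sham libraries. In the left and centre panels the injured libraries are above both shams with UUO highest, and in the right panel the injured libraries lie at 59.95% to 65.87% against shams above 91%.

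Several windows came close to the threshold without passing it, and for these only values are given. A window on chromosome 8, chr8:124860001-124861000 with 70 CpG sites, 39.5 kb upstream of the located start of Zc3h18, had 53.87% and 54.45% in UUO against 42.23% in the sham, and 41.04% and 46.73% in ischemia against 33.87% (mean difference 10.97 points, SE 1.32, adjusted p = 0.0504). On chromosome 5, chr5:151239001-151240000, 85.2 kb upstream of Brca2, a DNA repair gene, stood at 52.61%, 55.95%, 43.84% and 54.80% in the injured libraries and at 29.53% and 31.26% in the shams (21.41 points, adjusted p = 0.0549). The injured and sham values do not overlap there. On chromosome 17, chr17:32533001-32534000, 31.6 kb upstream of Wiz, a zinc finger gene, differed by 11.86 points (adjusted p = 0.0549). Toward lower levels, chr7:16792001-16793000, 31.3 kb downstream of the start of the homeobox gene Meis3, read 53.11%, 57.88%, 53.20% and 51.29% against 77.49% and 78.99% (-24.37 points, adjusted p = 0.0549). Windows near Pwp2 on chromosome 10 (-15.51 points, adjusted p = 0.0549), near Gm16059 on chromosome 15 (-25.66, adjusted p = 0.0741) and near Cdk6 on chromosome 5 (-13.99, adjusted p = 0.106) had lower levels in all 4 injured libraries than in their own sham.

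Leaving out the fragment-edge positions gave 9 called windows of 33301 (0.027%), all of them higher in injured kidneys, and 2 of them were the 4933428G20Rik and Runx1 windows. The promoter window of Hoxa5, a homeobox transcription factor of patterning, chr6:52154001-52155000, then read 20.74% and 25.55% in UUO against 8.85% in their sham and 14.82% and 17.79% in ischemia against 7.44% (mean rise 11.58 points, SE 1.31, adjusted p = 0.0302). With all positions its difference was 7.44 points (adjusted p = 0.334). A window 20.1 kb from the start of Mcts2 on chromosome 2 (chr2:152533001-152534000) read 16.54% and 21.29% in UUO, 11.40% and 13.33% in ischemia, and 6.13% and 0.62% in the shams (12.26 points, adjusted p = 0.0366). A window 27.4 kb from Cdk4, a cell cycle kinase, on chromosome 10 (chr10:126528001-126529000) read 19.84% and 17.04%, 7.20% and 12.75%, and 5.32% and 2.94% in the same order (10.08 points, adjusted p = 0.0366). The remaining 4 were the window near Wiz (12.50 points), 1 that lies 6.9 kb from Rps6ka4 on chromosome 19 (11.92 points), 1 that lies 4.9 kb from 2700081O15Rik on that chromosome (11.69 points), and 1 on chromosome 9 with 4 sites (17.89 points). In each of the 9, all 4 injured libraries were above their own sham and the rise was larger with obstruction than with ischemia, a difference that no window passed the test for. This count too depended on single libraries: it was 7 without the 1-week library or without the ischemia sham, and 0 without either UUO library, the 1-month library or the UUO sham. At an unadjusted p below 0.05 there were 2626 of the 33301 windows. A share of 0.05 of them is reached without any difference, so 2626 is not a count of changed windows. Here too a run without a sham covers the other series alone.

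Among the 7876 windows that held a located promoter, the 4933428G20Rik window alone was called, and the following windows were picked after their values were seen, for what their genes are known to do, out of those with the smallest p among differences of 5 points or more. None of them passed the test with all positions. Larger than some of them were Gm15609 (chr15:89354001-89355000, 7.19 points, adjusted p = 0.116) and Gm13205 (6.53 points, adjusted p = 0.31). Ddx4 is a germ-cell RNA helicase whose promoter is methylated in somatic tissue. Its window (chr13:113442001-113443000) read 77.71% and 75.54% in UUO, 77.66% and 78.00% in ischemia, and 68.52% and 69.06% in the shams, 8.44 points apart (SE 1.3, adjusted p = 0.106) with no overlap and with nearly the same level in both models. The imprinted genes Igf2r, the receptor that clears IGF2, and Mcts2, a retrogene with 1 active copy, also lay on this side. The Igf2r window (chr17:12962001-12963000) read 40.33% and 37.57% in UUO against 29.25%, and 29.49% and 30.71% in ischemia against 25.97% (6.92 points, adjusted p = 0.112). The Mcts2 window (chr2:152512001-152513000) read 60.33% and 61.90% against 54.84%, and 55.69% and 54.52% against 50% (5.69 points, adjusted p = 0.205). Gnmt, an enzyme that uses up the methyl donor of methylation reactions, read 35.72% and 34.23% against 28.64%, and 28.64% and 32.48% against 23.67% (6.61 points, adjusted p = 0.276). The promoters of Ddx4, Igf2r, Mcts2 and Hoxa5 are printed for comparison with that of 4933428G20Rik. They are the germ-line and imprinted examples and, for Hoxa5, a window called only without edge positions. The levels given for the printed stretches include edge positions. These are the 250 bases before each start from RefSeq (GRCm38.p6), 5′ to 3′, with CpG in capitals, minus strand except for Mcts2 on the plus strand.
Ddx4: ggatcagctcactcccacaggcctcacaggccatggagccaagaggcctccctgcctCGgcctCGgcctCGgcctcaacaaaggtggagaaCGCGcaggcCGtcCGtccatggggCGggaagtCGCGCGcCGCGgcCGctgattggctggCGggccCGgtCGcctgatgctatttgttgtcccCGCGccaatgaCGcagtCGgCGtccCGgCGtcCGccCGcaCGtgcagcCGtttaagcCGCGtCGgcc
Igf2r: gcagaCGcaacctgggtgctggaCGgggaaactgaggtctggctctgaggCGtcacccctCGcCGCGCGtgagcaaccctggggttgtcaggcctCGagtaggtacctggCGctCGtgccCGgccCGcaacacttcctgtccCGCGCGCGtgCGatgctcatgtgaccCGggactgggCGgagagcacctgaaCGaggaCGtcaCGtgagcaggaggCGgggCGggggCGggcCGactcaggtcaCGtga
Mcts2: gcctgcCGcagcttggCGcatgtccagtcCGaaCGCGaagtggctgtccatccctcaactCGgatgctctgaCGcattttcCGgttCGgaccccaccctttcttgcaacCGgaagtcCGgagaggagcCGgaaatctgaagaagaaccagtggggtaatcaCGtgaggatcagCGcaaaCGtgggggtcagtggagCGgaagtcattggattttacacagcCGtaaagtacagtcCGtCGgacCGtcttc
Hoxa5: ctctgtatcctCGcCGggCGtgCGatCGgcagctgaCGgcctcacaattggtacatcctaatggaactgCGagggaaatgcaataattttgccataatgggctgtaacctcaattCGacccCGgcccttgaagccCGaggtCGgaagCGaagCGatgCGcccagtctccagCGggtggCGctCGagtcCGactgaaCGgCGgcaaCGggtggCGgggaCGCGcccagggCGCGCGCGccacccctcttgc
They hold 31, 27, 20 and 28 CpG sites in that order, against a median of 6 over all promoters, and each holds CCGG at least 2 times. Within the Ddx4 stretch 23 measured sites averaged 75.02% to 78.05% in the injured libraries and 68.15% to 68.93% in the shams. The 17 sites of the Igf2r stretch averaged 35.55% to 45.82% in the injured libraries and 27.21% to 29.85% in the shams. In the Mcts2 stretch the injured and sham values overlap, with 62.52% and 60.97% in UUO against 55.09%, and 52.56% and 53.38% in ischemia against 48.30%. The 7 measured sites of the Hoxa5 stretch read 44.21% and 53.36% in UUO against 31.72%, and 33.03% and 33.54% in ischemia against 31.01%.

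Toward lower levels, 8 promoter windows were listed by the same rule, and 3 of them changed sign without fragment edges. Lrfn4, an adhesion protein of neurons, read 17.16% and 19.25% in UUO against 26.24%, and 18.19% and 14.51% in ischemia against 22.13% (-6.91 points, adjusted p = 0.189). It stayed lower without edge positions (-5.71 points), as did 1700030C10Rik (-6.67 points with all positions and -10.60 without edges, adjusted p = 0.404 and 0.189). The Apip and Pdhx window went from -6.65 to -0.20 points and that of Dhrs7 from -5.96 to -0.58 points, while Plekho2 (-5.37 points) has no value without edges. The window of 4930503B20Rik differed by -10.71 points with all positions and by 0.61 points without edges. For Olfm1, a secreted glycoprotein, the values were -7.52 and 2.03 points, and for Nipal1, a magnesium transporter, -7.63 and 0.31 points. None of these differences passed the test under either set of positions, and 4930503B20Rik, Olfm1 and Nipal1 changed sign between the sets.

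The listed genes of matrix, TGF-beta signalling, methylation machinery and kidney cell types could be followed in part. Levels and differences given for them include fragment-edge positions. In the first UUO library, windows with a located promoter averaged 18.83% with all positions and 3.18% without edges. Of 82 listed genes, 19 had a located promoter, in 23 windows, and 0 of these were called or reached an unadjusted p below 0.05, beside 289 of the 7876 promoter windows (3.67%) that did. Mean differences in the listed windows ran from -1.94 points for Kdr, a receptor for VEGF in endothelium, to 1.75 points for Tet1. The matrix list gave 5 genes of 19 in 5 windows with a median difference of 0.84 points, against -0.09 points for all promoter windows. Vim, an intermediate filament of mesenchymal cells, read 19.31% and 20.54% in UUO against 18.53%, and 18.74% and 18.03% in ischemia against 17.96%. The TGF-beta list gave 3 genes of 16, Tgfb1, Tgfbr1 and Smad3, with a median of 0.10 points over 5 windows. The methylation machinery gave 7 genes of 9 in 9 windows with a median of 0.20 points. Dnmt1, the maintenance enzyme, read 16.04% and 14.81% against 17.52% in UUO, and 14.18% and 14.42% against 15.05% in ischemia (-1.42 points, SE 0.79). Of the cell type markers, Lrp2 (proximal tubule), Aqp3 and Gata3 (collecting duct) and Kdr were covered, with 0 of 4 podocyte, 0 of 4 fibroblast and 0 of 9 leukocyte genes, so the share of those cells was not analysed here.

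With obstruction, the mean difference from the sham was largest in windows of intermediate methylation. Windows were grouped by their mean level in the 5AZA libraries, which are obstructed kidneys outside the comparison, and edge positions were left out. In the 3360 windows at 30 to 70%, the mean level was 60.96% and 61.02% in UUO against 56.74% in the sham, and 54.63% at 1 week and 56.98% at 1 month against 54.41%. The UUO libraries were thus 4.21 and 4.27 points above their sham, the 1-month library 2.58 points and the 1-week library 0.22 points. The shams differed from each other by 2.34 points in this class, close to the 1-month value. All 4 injured libraries lay above their sham in 26.37% of these windows and below it in 8.51%, against 17.71% and 8.58% of all 33301. The 1892 windows at 10 to 30% showed 3.77 and 3.79 points in UUO, 0.27 at 1 week and 2.10 at 1 month. At 0 to 10%, 19424 windows were 0.45 points higher with obstruction and 0.10 with ischemia, while the 2169 windows at 90 to 100% were at -0.02 and -0.31 points. With all positions, the 17029 windows at 30 to 70% were 2.61 points higher with obstruction and 0.07 with ischemia, while ischemia stood at -0.33 points at 10 to 30%, -0.39 at 70 to 90% and -0.41 at 90 to 100%. Ischemia thus did not follow the order of obstruction with all positions. Without edges the 1-week library was at -0.47 points at 70 to 90%, farther from 0 than at 30 to 70%. These class means carry no test, and the sham level of each series rests on 1 library.

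**Figure D4:**
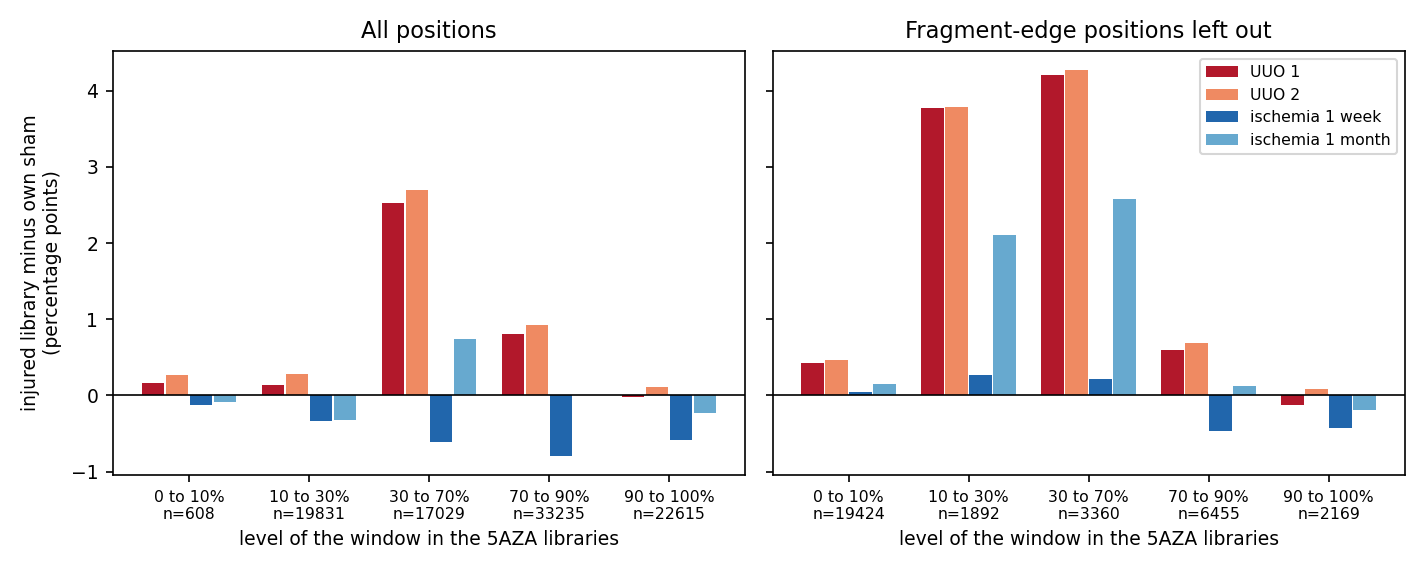
Injured library minus its own sham (percentage points, mean over windows) by the level of the window in the 5AZA libraries, with a bar per injured library and the number of windows under each class. UUO bars are tallest at 30 to 70% in both panels, and without edge positions the 1-month bar reaches 2.58 points there while the 1-week bar stays at 0.22.

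Promoter windows were low in methylation and differed little. Without edges, 7304 windows with a located promoter averaged 3.18% and 3.25% in UUO, 2.92% in the UUO sham, 2.02% and 2.07% in ischemia and 1.99% in its sham. With all positions the same kind of window averaged 17.26% to 19.04%. Over all windows, and not promoter windows alone, the mean differences were spread over the autosomes. With all positions, the obstruction difference was above 0 on 19 of 19 autosomes (0.622 to 1.03 points) and the ischemia difference on 0 of 19 (-0.42 to -0.174 points). The 1-month library was above its sham on 12 of 19. All autosomes of a series rest on the same sham library, so their values are not independent.

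Some windows differed by 10 points in both series. At least 10 points above the sham in the mean of a series were 3198 windows with obstruction (3.43% of all windows) and 931 with ischemia (0.998%), and 201 were so in both, 6.29% of the first and 21.6% of the second list. At least 10 points lower were 1051 (1.13%) and 968 (1.04%) windows, and 117 in both, 11.1% and 12.1% of them. Each share lies above the share of all windows that the other series holds, a description without a test. A further 76 windows were higher with obstruction and lower with ischemia, and 36 the reverse. As shares of their lists, these opposite windows also lie above the share of all windows that the other series holds. An excess of that kind is thus not particular to windows that moved in the same direction. The differences of both series had the same sign in 50.8% of windows and a Pearson r of 0.13 over 93321 windows, or 53.76% and 0.25 over the 33301 windows without edge positions. Genes and windows are not replicates, and each difference contains its own sham library, so these numbers describe the 6 libraries.

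**Figure D5:**
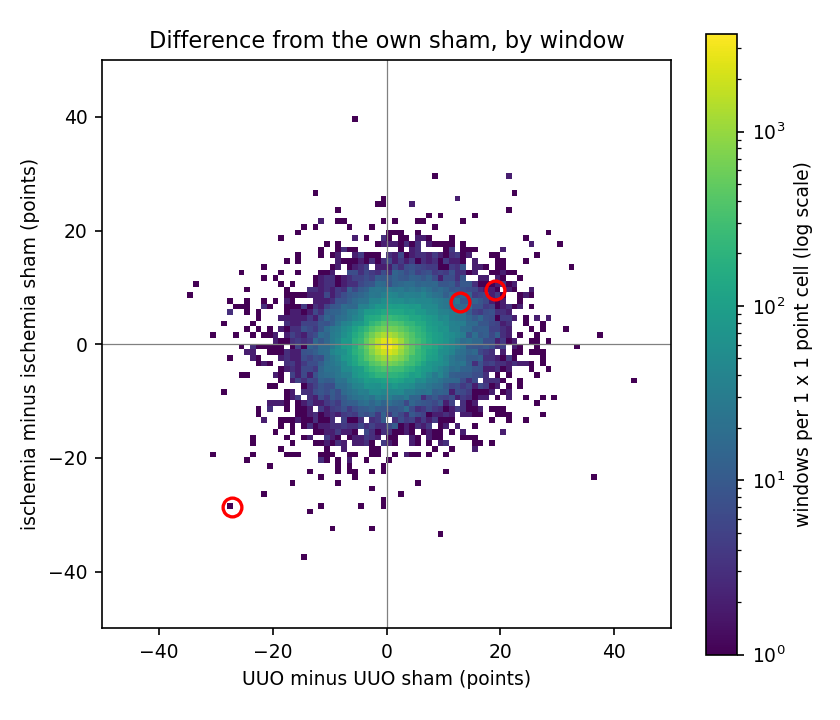
Difference from the own sham in UUO (horizontal, points) against that in ischemia (vertical, points) for 93321 windows, coloured by the number of windows per cell on a log scale, with the 3 called windows ringed. The cloud is centred near 0 and wider along the UUO axis, with 2 ringed windows at the upper right and the Syngr1 window at the lower left.

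A difference between the models in the effect of injury passed the test in 0 windows with 10 points or more (0.0%). At an unadjusted p below 0.05 there were 5364 of the 93321 windows. A share of 0.05 of all windows is reached without any difference, so this is not a count of changed windows. A single window had an adjusted p below 0.05 with a smaller difference (0.00107%), chr5:147072001-147073000, 29.2 kb downstream of the start of Cdk8, a kinase of the Mediator complex. It read 30.24% and 30.71% in UUO against 36.26%, and 28.35% and 29.20% in ischemia against 26.09%, so the models differed by -8.47 points (SE 0.54, quasi-binomial model with limma's squeezeVar, adjusted p = 0.000487). It held 50169 to 83488 reads per library, far above the median of 274, and with an upper limit on depth per position the value was 3.01 points (adjusted p = 0.935). The largest contrast among the windows with the smallest p was at chr7:20093001-20094000 near Ppp1r37, with 16.55% and 24.32% against 55.03% in the obstruction series and 27.20% and 19.48% against 15.10% in ischemia (-42.84 points, adjusted p = 0.833).

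With all 6 libraries, more windows were called for series than for injury. The series term, which holds model, surgery and any batch together, was called in 189 windows (0.203%), 41 higher and 148 lower in the ischemia series, and 3 of them held a located promoter. None was also called for injury. A window at chr5:17415001-17416000 read 65.93%, 63.31% and 62.52% in the UUO libraries and their sham, and 94.87%, 94.42% and 92.12% in the ischemia libraries and theirs (29.82 points, SE 1.65, adjusted p = 0.000135). Chromosome 18 was left out when series windows were picked for naming, and the largest series difference among all called windows was 38.73 points in absolute size. The median absolute difference over windows was 1.71 points for series and 1.31 points for injury. The number of series calls was 46 and 14 without the first and the second UUO library, 58 without the 1-week and 22 without the 1-month library. Without the 1-week library the order turns, with 65 windows called for injury.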

How the data were processed

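RRBS libraries of mouse kidney were compared in 6 of 8 samples, grouped by their titles. Digestion with MspI was followed by end repair in the presence of methylated dCTP, size selection, bisulfite conversion and PCR, per the labels' protocols. Per the submitters' processing notes, reads were aligned with Bowtie to mm9; no source used here gives its version, the methylation caller or any filter. Each deposited table lists, per CpG, the count of covering reads and the count of methylated reads, not normalized, with the level as a fraction that the authors had rounded. Any cytosine that reads as thymine counts as unmethylated. PCR copies are not told apart.

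Positions were joined in pandas 2.3.3 and numpy 2.4.6 (Python 3.11.15). Positions needed 10 reads in all 6 libraries and windows of 1000 bp 3 positions, on autosomes. The quasi-binomial model used limma 3.58.1 in R 4.3.3, with a prior dispersion of 1.36, 8.76 prior degrees of freedom, a dispersion of at least 1 and 3 residual degrees of freedom (2 for the interaction), and was tested on simulated data. Obstruction and both reperfusion times share 1 effect in it. A position counted as a fragment edge if, on either side, no CpG with 40 reads in all lay within 250 bp, or if its depth differed from that CpG by more than 10% (absolute differences added over the 6 libraries).

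Gene names were added after the design was fixed, which had asked for an mm9 annotation. The CpG spacing of each 300-base RefSeq promoter with at least 8 CpG was matched to the measured positions of its chromosome, and 8279 of 15961 searched promoters (of 32851) fitted 1 place. Of neighbouring located promoters, 8242 of 8245 pairs kept their RefSeq order, and 28 mirrored sequences were located. No coordinates were converted.

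Named windows are up to 10 called windows per direction with 4 of 4 libraries on the same side, the 5 smallest p per direction where fewer than 5 were called, and the smallest p for the interaction. For the series term, the largest called differences per direction outside chromosome 18 were listed. Promoter windows were added after seeing values. Members, lists and rules were chosen with earlier results of these data known. Alternatives were other read minimums, depth limits, window sizes, minimum differences, libraries left out, limma, and edgeR 4.0.16 on methylated and unmethylated counts. Leaving out edges and a library together was chosen after seeing the data.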

Additional observations from a re-analysis of the deposited data

Results flagged for a closer look

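In the promoter window of Ddx4 the second UUO library, at 75.54%, stood apart from the other 3 injured libraries, which read 77.66% to 78.00%. Its gap was 0.862 of the range of the 4, above Dixon's critical value for 4 values, and chance flags about 1 in 20 of such groups, of which 45 were examined. The library still lay above both shams.

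The effect of injury differed between the models in the window near Cdk8, by -8.47 points (interaction term, adjusted p = 0.000487), at depths that the upper limit removes.

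In 3 classes of windows, with all positions, both UUO libraries were above their sham and both ischemia libraries below theirs, and the difference between the models was not tested. It was 0.32 points in windows at 0 to 10%, 0.54 points at 10 to 30%, and 0.48 points in windows with 20 or more CpG positions. The shams differed from each other by 1.10, 1.21 and 1.09 points in these classes.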

How the results depend on the processing

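The mean level difference of 0.299 points turned to -1.456 with pooled reads (exact permutation p = 0.3333) and to -0.365 with each library on its own positions (exact permutation p = 0.6667), and ran from -0.257 to 0.855 with a library left out. Both ends of that range are runs without a sham, in which only the other series is left. The 3 windows called for injury became 0 at 20 reads per position, 0 with at least 5 positions per window, 1 with windows of 300 bp, 9 without fragment edges, 1 without the series block, 1 at a minimum of 20 points, 0 with limma on levels, 1 with edgeR, 7 with all 8 libraries in the fit, and 0 to 65 with a library left out. Without edges and a library together the 9 became 0 to 7. The 0 windows called for the interaction became 1 at a minimum of 5 points, 2 with the X chromosome added, and 0 to 2 with a library left out. The 189 series windows became 324 at a minimum of 5 points, 18 at 20 points, 54 with windows of 300 bp, 309 without edges, 42 with 5 positions, 6 with limma on log2 ratios, 92 with edgeR, and 14 to 58 with a library left out. The causes were not tested.

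Of the named windows, Olfm1 reversed to 2.03 points without edges and 1.81 with limma on levels, 4930503B20Rik to 2.03 at 20 reads and 0.61 without edges, and Nipal1 to 0.31 without edges and 0.48 with limma on levels. Between the models, the window near Wnt6 (chr1:74830001-74831000) reversed from -22.79 to 1.06 without edges and 1.67 with limma on levels, that near Ppp1r37 to 1.91 with limma on levels and that near Cdk8 to 3.01 under the depth limit. Of 419 alternative values of the named injury windows, 373 kept direction and side of the threshold. Most of these windows did not pass in the main run, so staying uncalled counts as kept. The called windows kept their call less often. The 4933428G20Rik and Runx1 windows did so in 7 of 17 alternatives each, and the Syngr1 window in 8 of 14. No paired analysis was possible because the groups compared share fewer than 2 replicate numbers.

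Each sham is 1 library, so the spread between shams of 1 model is unknown, and a median of 274 reads per window limits how small a difference can be called.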
